A study of Mus musculus with 4 samples.

Results

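The type I interferon-stimulated antiviral genes are a set of 35 mouse genes, given by symbol, that cells switch on after contact with type I interferon, listed without the interferon regulatory factors, the guanylate-binding and immunity-related GTPases and the MHC genes. They were taken from a table of 26334 rows by their symbols. The table held 33 of the 35, and the dynamin-like GTPase genes Mx1 and Mx2 were not analysed here. Bulk RNA sequencing of polyadenylated RNA gave their levels in CD4+ T cells that came from mouse spleen as naive cells and spent 5 days in T helper 1 (Th1) culture. In one group (n = 2 libraries) the cultures held interleukin-16 (IL-16), which is a cytokine that binds CD4, and in the other (n = 2 libraries) they held the vehicle, phosphate-buffered saline (PBS). Both groups thus shared the Th1 culture and differed in IL-16. The sources used here do not give mouse strain, age or the dose of IL-16.

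Type I interferons bind the receptor formed by Ifnar1 and Ifnar2 and activate the kinases Jak1 and Tyk2, which phosphorylate Stat2. Stat2 and Irf9 are subunits of the factor ISGF3, which binds the interferon-stimulated response element (ISRE) in the promoters of antiviral genes. The products sense foreign nucleic acid, degrade or edit it, block its translation, or hold back virus particles. Interferon-gamma, the cytokine that Th1 cells secrete, acts through another promoter element, the gamma-activated sequence (GAS), and induces part of the same genes.

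The deposited values were read as FPKM (a fragment density scaled to gene length and library size). The summed FPKM of a library ran from 373924 to 391153. Read numbers are unknown, so the counting error of the values could not be estimated. Testing required 1 FPKM or more in at least 2 libraries, which 11882 rows reached. The labels do not say whether the 2 libraries per group stem from different mice or cultures, so p-values measure only the spread between libraries, which may be technical. Th1 cells stand in the sample titles, but peritoneal macrophages in the source and cell type fields. Among 10 markers of CD4+ T cells all were above 1 FPKM in each library, with medians of 144 to 168 FPKM. Of 11 macrophage markers 1 was above 1 FPKM in every library (Cd68, at most 4.88 FPKM), and Fcgr1 and Timd4 were listed at 0 throughout. Their summed level was 5.16 and 6.41 FPKM with IL-16, against 4.90 and 5.37 FPKM with PBS. The summed level of 6 B cell markers was 1.98 and 2.11 FPKM with IL-16, against 3.29 and 4.26 FPKM with PBS. In 5 of the 6 both IL-16 values lay below both PBS values, where 34.8% of all tested rows did. Of the 6 only Cd79a reached the limit for testing. Of 7 conventional dendritic cell markers 1 was above 1 FPKM in every library, H2-Ab1. It had 51.1 and 51.4 FPKM with IL-16, against 42.5 and 45.3 FPKM with PBS. Of 5 NK cell markers 1 was above 1 FPKM in every library (Eomes, at most 1.31 FPKM). Both CD8+ T cell markers, Cd8a and Cd8b1, were above 1 FPKM in every library. Cd8b1 had 7.86 and 6.37 FPKM with IL-16, against 6.75 and 6.25 FPKM with PBS. The part of such other cells in the results was not tested. In bulk RNA, fewer expressing cells and less RNA per cell cannot be told apart.

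With IL-16, 1 of the 25 tested antiviral genes rose, the nucleic acid sensor gene Zbp1, and none fell, at an adjusted p under 0.05 in limma over all tested rows. Of all tested rows 0.16% were called higher and 0.0589% lower. At an adjusted p under 0.10 there were 2 genes higher, Zbp1 and Usp18, and none lower, against 1.04% and 0.791% of all rows. At an unadjusted p under 0.05, 12 genes (48%) were higher with IL-16 and 1 gene (4%) was lower, where 9.59% and 13.9% of all rows were. In 17 of the 25 (68%) both IL-16 values lay above both PBS values and in 4 (16%) both lay below, against 24.1% and 34.8% of all rows. After median-of-ratios scaling the split of all rows at an unadjusted p under 0.05 was 1464 higher and 1310 lower (1139 and 1646 without it), and 14 of the antiviral genes were higher and 1 lower. The log2 fold change was above 0 for 20 of the 25 (80%), against 42.2% of all rows. Its median was 0.23, and that of all tested rows was -0.045. None of the 25 had entered the test through 1 group alone. The counts depended on single libraries. Without IL-16 replicate 1, 6 genes were called higher (Zbp1, Usp18, Samhd1, Dtx3l, Sp100 and Stat2) and 2 lower (Bst2 and Ifi27l2a), where 6.44% of all rows were higher and 10.9% lower. Without IL-16 replicate 2, 2 were called higher (Zbp1 and Usp18), where 0.244% of all rows were. With either PBS library left out, limma called none. The genes higher at an unadjusted p under 0.05 then numbered 4 without PBS replicate 1 (515 of 11882 rows) and 11 without PBS replicate 2 (621 rows). The remaining 8 genes in the table, Ifit3, Ifit3b, Oas2, Oasl1, Oasl2, Rsad2, Ifi44 and Rtp4, were below the limit for testing, and the highest value among them in any library was 1.96 FPKM.

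The levels of the 33 genes spanned a wide range, and Ifit1, Rsad2 and Ifi44, often used as markers of an interferon response, stood at its low end. Samhd1, at 428 FPKM with IL-16 and 319 FPKM with PBS, was the most abundant. It was followed by Ifi27l2a, Sp100, Zbp1 and Dtx3l. A mean over the 4 libraries of 20 FPKM or more was reached by 15 genes. Isg15 averaged 10.4 ± 1.19 FPKM with IL-16 and 9.25 ± 2.56 FPKM with PBS (SD, n = 2 each). Ifit1 averaged 1.71 ± 0.306 FPKM with IL-16 and 1.15 ± 0.00888 FPKM with PBS (SD, n = 2 each). Rsad2, which encodes viperin, did not exceed 0.509 FPKM, and Ifi44 did not exceed 0.322 FPKM. Of the 5 tested genes with a mean between 1 and 5 FPKM (Ifit1, Ifit2, Oas1a, Ifih1 and Cmpk2), none reached an unadjusted p under 0.05. Among all 3303 tested rows of that level, 5.30% did so with higher values under IL-16. Of the 13 antiviral genes with a mean from 20 to 100 FPKM, 8 did so with higher values under IL-16. Among all 3038 tested rows of that level the share was 15.1%. Log2 fold changes were computed from log2(FPKM + 1), so for genes near or below 1 FPKM they understate the change.

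**Figure D1:**
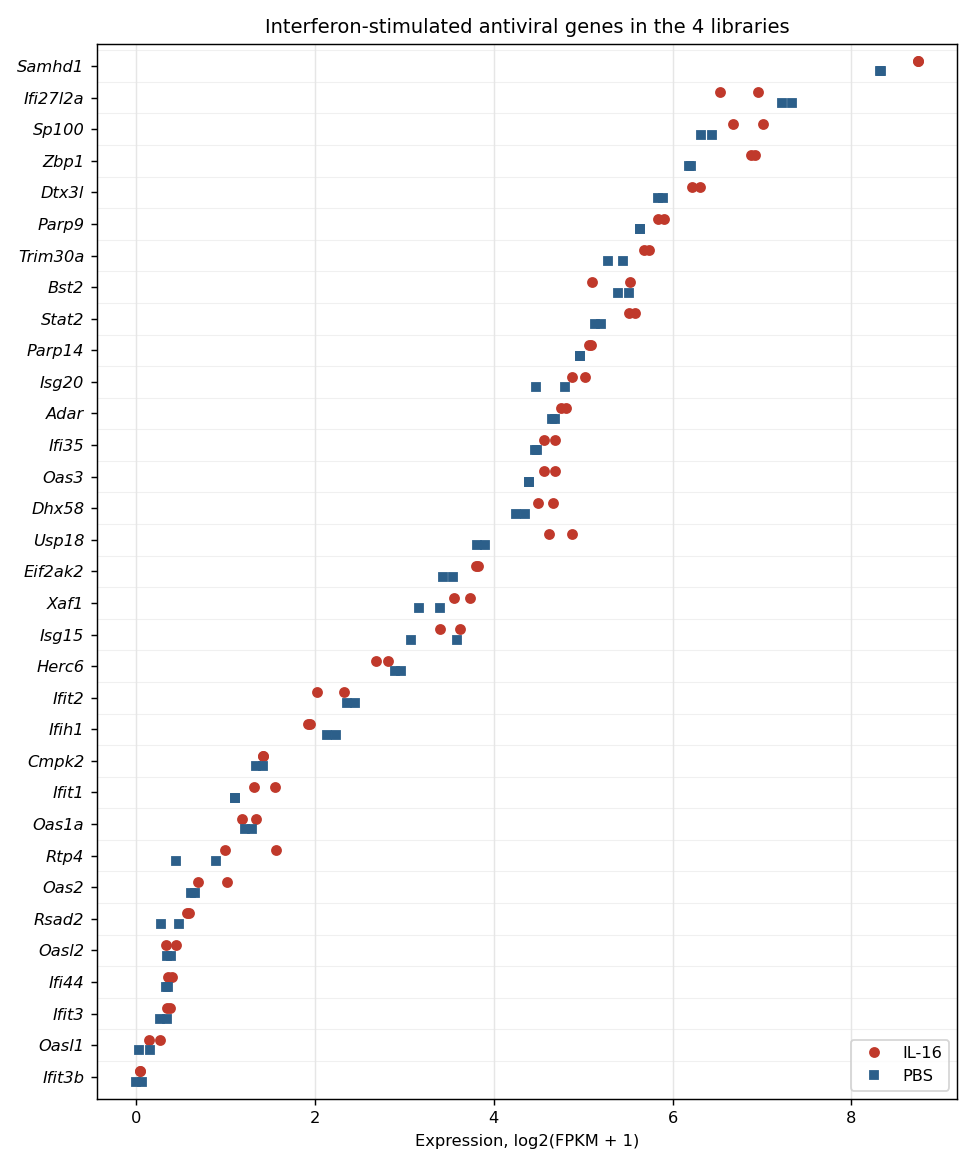
Expression of the 33 interferon-stimulated antiviral genes as log2(FPKM + 1), ordered by mean level, with IL-16 libraries as circles and PBS libraries as squares. Most of the genes in the upper part have both circles to the right of both squares, while Ifi27l2a has them to the left, and 8 genes at the bottom were too low to be tested.

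The ISRE core was looked for in promoter windows of RefSeq (GRCm38.p6), which run from 250 bases before to 50 bases after each gene's start. The letters searched were GAAA, any 2 bases and GAAA, on both strands, and 25 of the 35 genes had a window. The core was present in 12 of the 25 (48%), against 3.99% of the 27025 genes with windows. The GAS core, the letters TTC, any 3 bases and GAA, which read the same on both strands, was present in 8 of the 25 (32%), against 9.55% of all genes. The stretches below show how these letters lie upstream of genes whose levels are described in the following paragraphs, 5′ to 3′ on the strand of the gene. Capitals mark the ISRE core in either orientation and the GAS core. The Isg15 stretch (chr4:156200855-156200916, minus strand) has 3 overlapping copies, and that of Ifit1 (chr19:34640765-34640833, plus strand) has 2 in reverse orientation. Those of Oas3 (chr5:120777705-120777754, minus strand) and Stat2 (chr10:128270256-128270305, plus strand) have 1 each. The Bst2 stretch (chr8:71537567-71537622, minus strand) has 2 overlapping ISRE cores that run on from a GAS core. Samhd1 (chr2:157135303-157135346, minus strand) has a GAS core and no ISRE core in its window.
Isg15: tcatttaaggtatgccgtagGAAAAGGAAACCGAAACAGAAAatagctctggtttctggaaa
Ifit1: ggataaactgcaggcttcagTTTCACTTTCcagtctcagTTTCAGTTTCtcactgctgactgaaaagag
Oas3: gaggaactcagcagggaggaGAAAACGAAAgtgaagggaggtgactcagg
Stat2: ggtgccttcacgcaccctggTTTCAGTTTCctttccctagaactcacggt
Bst2: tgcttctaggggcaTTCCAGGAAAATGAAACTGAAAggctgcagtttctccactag
Samhd1: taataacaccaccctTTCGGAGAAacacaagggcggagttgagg

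Among the tested genes with a window, those with and without the ISRE letters gave like counts. Zbp1, Usp18, Dhx58, Parp9, Parp14 and Ifi27l2a were tested but had no window, so the comparison leaves them out. Among the 9 tested genes with the letters, 4 were higher with IL-16 at an unadjusted p under 0.05 (Oas3, Eif2ak2, Trim30a and Stat2), and their median log2 fold change was 0.23. Among the 10 tested genes with a window but without the letters, 4 were higher (Samhd1, Sp100, Dtx3l and Xaf1), and the median was also 0.23. The difference was not tested, and a match to these letters does not show that a factor binds there.

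Among the sensors of nucleic acid, Zbp1 rose and Eif2ak2 and Dhx58 had higher values that did not pass. Zbp1 encodes a protein that recognises Z-form DNA and RNA and can start necroptosis. It had 116 and 120 FPKM with IL-16, against 72.9 and 71.6 FPKM with PBS. The groups were far apart and the libraries of each were close together. The ratio of means was 1.64 and the log2 fold change 0.70 (SE 0.067, 95% interval 0.54 to 0.87, adjusted p = 0.0442). It stood last by p among the 26 rows called, and the call was lost without PBS replicate 1 (adjusted p = 0.267) and without PBS replicate 2 (adjusted p = 0.264), where the log2 fold change was 0.72 and 0.69. It was also lost with the replicate number as a block (adjusted p = 0.0577), at a pseudocount of 0.1 (adjusted p = 0.0510) and without the filter on low values (adjusted p = 0.148). The range of adjusted p over 12 alternatives was 0.0116 to 0.267.

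Eif2ak2 encodes PKR, the kinase that stops translation when it meets double-stranded RNA. Its values were 12.9 and 13.2 FPKM with IL-16, against 9.78 and 10.6 FPKM with PBS (log2 fold change 0.33, adjusted p = 0.135). Dhx58 encodes LGP2, a helicase that modulates RNA sensing, and had 24.3 and 21.6 FPKM with IL-16, against 18.0 and 19.4 FPKM with PBS (log2 fold change 0.28, adjusted p = 0.176). In both genes the IL-16 values lay above the PBS values. Ifih1, which encodes the long double-stranded RNA sensor MDA5, went the other way without passing. It had 2.84 and 2.78 FPKM with IL-16, against 3.38 and 3.70 FPKM with PBS (log2 fold change -0.25, adjusted p = 0.254).

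In the ISG15 cycle, Usp18 had the largest log2 fold change of all tested antiviral genes while Isg15 itself overlapped between groups. Usp18 encodes the protease that removes ISG15 from proteins and, apart from that, restrains signalling at the type I interferon receptor. Its values were 28.4 and 23.5 FPKM with IL-16, against 13.97 and 13.02 FPKM with PBS. Both IL-16 libraries lay well above both PBS libraries, though they differed from each other. The ratio of means was 1.92 and the log2 fold change 0.89 (SE 0.11, interval 0.61 to 1.17), but it did not pass over all rows (adjusted p = 0.0656). It passed without IL-16 replicate 1 (adjusted p = 0.0149) and without IL-16 replicate 2 (adjusted p = 0.0438), and had an adjusted p of 0.0149 to 0.250 over 12 alternatives.

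Isg15, the ubiquitin-like modifier, had 11.3 and 9.58 FPKM with IL-16, against 7.44 and 11.1 FPKM with PBS. The PBS libraries were farther apart than the group means, and the interval of the log2 fold change ran from -0.31 to 0.66 (adjusted p = 0.601). The estimate was -0.082 without PBS replicate 1 and 0.43 without PBS replicate 2. Herc6, which in the mouse encodes the main ligase that attaches ISG15, had 5.44 and 6.06 FPKM with IL-16, against 6.41 and 6.796 FPKM with PBS. Both IL-16 values were below the PBS values, without passing (log2 fold change -0.17, adjusted p = 0.356, and -0.11 without IL-16 replicate 1).

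Of the enzymes that act on nucleic acids and nucleotides, 4 of 5 were tested and none passed. Samhd1 hydrolyses deoxynucleotides and so limits viral DNA synthesis. It had 429.0 and 428 FPKM with IL-16, against 317 and 320.2 FPKM with PBS. The libraries of a group were nearly equal and the groups did not overlap (ratio of means 1.34, log2 fold change 0.42, SE 0.075, interval 0.24 to 0.61, adjusted p = 0.101). It passed only when IL-16 replicate 1 was left out (adjusted p = 0.0148).

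The RNA-editing enzyme gene Adar and the exonuclease gene Isg20 had higher IL-16 values without overlap. Adar had 27.0 and 26.0 FPKM with IL-16, against 24.7 and 24.2 FPKM with PBS (log2 fold change 0.11, adjusted p = 0.383). Isg20 had 28.4 and 31.4 FPKM with IL-16, against 21.2 and 26.7 FPKM with PBS (log2 fold change 0.32, adjusted p = 0.217), and the log2 fold change was 0.16 without PBS replicate 1 and 0.48 without PBS replicate 2. Cmpk2, a mitochondrial nucleotide kinase gene, had a log2 fold change of 0.039 (adjusted p = 0.876). Its neighbour Rsad2 was below the limit for testing.

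Genes of interferon signalling and of the ADP-ribosylation machinery had higher values with IL-16 without overlap in 4 of 4, where 24.1% of all tested rows did, and none of the 4 passed. Stat2, a subunit of ISGF3, had 46.8 and 44.7 FPKM with IL-16, against 35.8 and 34.0 FPKM with PBS. The gap between the groups exceeded the spread within either (log2 fold change 0.38, SE 0.073, interval 0.20 to 0.57, adjusted p = 0.105), and it passed without IL-16 replicate 1 (adjusted p = 0.0361). Dtx3l, a ubiquitin ligase gene, and Parp9, whose product works in a complex with that ligase, lie next to each other. Dtx3l had 73.4 and 78.4 FPKM with IL-16, against 56.0 and 58.3 FPKM with PBS (log2 fold change 0.40, SE 0.073, interval 0.22 to 0.59, adjusted p = 0.101). It passed without IL-16 replicate 1 (adjusted p = 0.0181).

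Parp9 had 59.0 and 55.9 FPKM with IL-16, against 48.9 and 48.7 FPKM with PBS (log2 fold change 0.23, adjusted p = 0.152). In the GENCODE annotation of GRCm38 the exons of Dtx3l and Parp9 overlap on opposite strands. The sources used here do not say whether the counting used strand, so reads from the overlap cannot be assigned to one of them. Parp14, a mono-ADP-ribosyltransferase gene in the same neighbourhood, had 33.1 and 32.6 FPKM with IL-16, against 30.3 and 30.1 FPKM with PBS (log2 fold change 0.12, adjusted p = 0.340). In all, 8 of the 35 genes overlap an exon on the other strand in that annotation, among them also Usp18, Dhx58, Eif2ak2, Adar and Ifi35.

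Of the restriction factor and nuclear body genes 3 were tested and none passed, and differences between these genes were not tested. Sp100, a component of PML nuclear bodies, had 101 and 128 FPKM with IL-16, against 78.8 and 85.7 FPKM with PBS. The groups did not overlap, but the IL-16 libraries were farther apart than the nearest values of the 2 groups (log2 fold change 0.46, SE 0.13, interval 0.14 to 0.79, adjusted p = 0.139). Leaving out IL-16 replicate 2 gave a log2 fold change of 0.30, and leaving out IL-16 replicate 1 gave 0.63, which passed (adjusted p = 0.0146). Trim30a, which in the mouse restrains Toll-like receptor signalling, had 52.1 and 50.1 FPKM with IL-16, against 37.7 and 42.5 FPKM with PBS (log2 fold change 0.34, adjusted p = 0.124).

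Bst2, which encodes tetherin and ties budding virions to the cell, overlapped between groups. It had 44.8 and 33.2 FPKM with IL-16, against 41.0 and 44.8 FPKM with PBS (log2 fold change -0.15, interval -0.53 to 0.23, adjusted p = 0.575). Leaving out IL-16 replicate 2 gave a log2 fold change of 0.063 (adjusted p = 0.681), and leaving out IL-16 replicate 1 gave -0.36 (adjusted p = 0.0458), so its direction depended on which IL-16 library was kept.

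**Figure D2:**
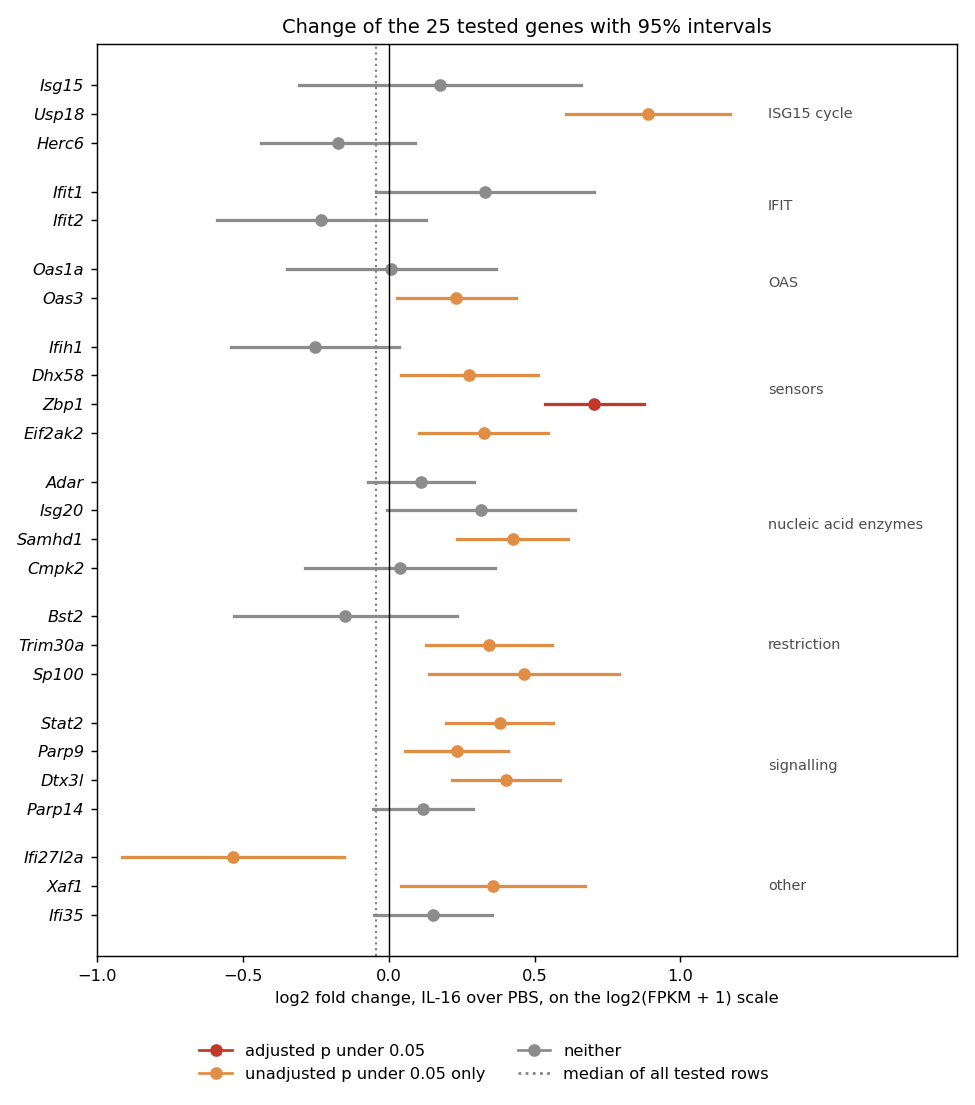
Log2 fold change of the 25 tested genes, IL-16 over PBS on the log2(FPKM + 1) scale, with 95% intervals (bars) and the median of all tested rows (dotted line, -0.045), grouped by role. Zbp1 is the only gene past an adjusted p of 0.05, Usp18 has the largest estimate, and Ifi27l2a is the only gene whose interval lies below 0.

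The RNA-binding IFIT and the OAS families were mostly low, and none of their tested members passed. IFIT proteins bind foreign RNA ends, and OAS enzymes make the oligoadenylates that switch on RNase L. Ifit2 had 3.99 and 3.07 FPKM with IL-16, against 4.11 and 4.48 FPKM with PBS (log2 fold change -0.23, SE 0.14, interval -0.59 to 0.13, adjusted p = 0.365). Dropping IL-16 replicate 2 gave -0.084 and dropping IL-16 replicate 1 gave -0.38. Ifit1, its neighbour on chromosome 19, had 1.93 and 1.498 FPKM with IL-16, against 1.16 and 1.14 FPKM with PBS (log2 fold change 0.33, adjusted p = 0.249, and 0.22 without IL-16 replicate 1). The 2 genes thus lay on opposite sides of 0 without either passing. Ifit3 did not exceed 0.298 FPKM and Ifit3b did not exceed 0.0502 FPKM. Ifit3 and Ifit3b are close copies, and the stretch that holds both ISRE cores, shown here because it has the same letters in both promoters, is as follows (Ifit3 at chr19:34583353-34583436 and Ifit3b at chr19:34607749-34607832, plus strand).
Ifit3 and Ifit3b: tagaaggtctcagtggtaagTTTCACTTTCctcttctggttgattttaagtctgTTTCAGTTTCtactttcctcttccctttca

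Oas3 was the one abundant OAS gene. It had 24.8 and 22.7 FPKM with IL-16, against 20.05 and 20.02 FPKM with PBS, without overlap (log2 fold change 0.23, SE 0.081, interval 0.027 to 0.44, adjusted p = 0.184). Oas1a had 1.54 and 1.265 FPKM with IL-16, against 1.45 and 1.32 FPKM with PBS (adjusted p = 0.976). Oas2, which lies beside Oas3, had 0.616 and 1.03 FPKM with IL-16, against 0.582 and 0.526 FPKM with PBS. Oasl1, whose product in the mouse restrains translation of Irf7, and Oasl2 did not exceed 0.203 and 0.363 FPKM. Reads may be divided among the similar genes of the IFIT, OAS and Trim30 families, which leaves these values uncertain.

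Ifi27l2a, a small interferon-inducible protein gene, was the one antiviral gene that was lower at an unadjusted p under 0.05. It had 123 and 91.6 FPKM with IL-16, against 161 and 148 FPKM with PBS. Both IL-16 values lay below both PBS values and differed from each other by more than the PBS values did (ratio of means 0.695, log2 fold change -0.53, SE 0.15, interval -0.92 to -0.15, adjusted p = 0.143). Leaving out IL-16 replicate 2 gave a log2 fold change of -0.32 (adjusted p = 0.120), and leaving out IL-16 replicate 1 gave -0.75 (adjusted p = 0.0119).

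Xaf1, whose product binds the apoptosis inhibitor XIAP, had 10.7 and 12.3 FPKM with IL-16, against 7.94 and 9.58 FPKM with PBS (log2 fold change 0.36, adjusted p = 0.183, and 0.24 without PBS replicate 1). Ifi35 had 24.7 and 22.7 FPKM with IL-16, against 21.5 and 21.0 FPKM with PBS (log2 fold change 0.15, adjusted p = 0.308, and 0.092 without IL-16 replicate 1). Neither overlapped between groups. Rtp4, which encodes a receptor-trafficking protein, had 0.993 and 1.96 FPKM with IL-16, against 0.856 and 0.364 FPKM with PBS, and was not tested because only 1 library reached 1 FPKM.

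**Figure D3:**
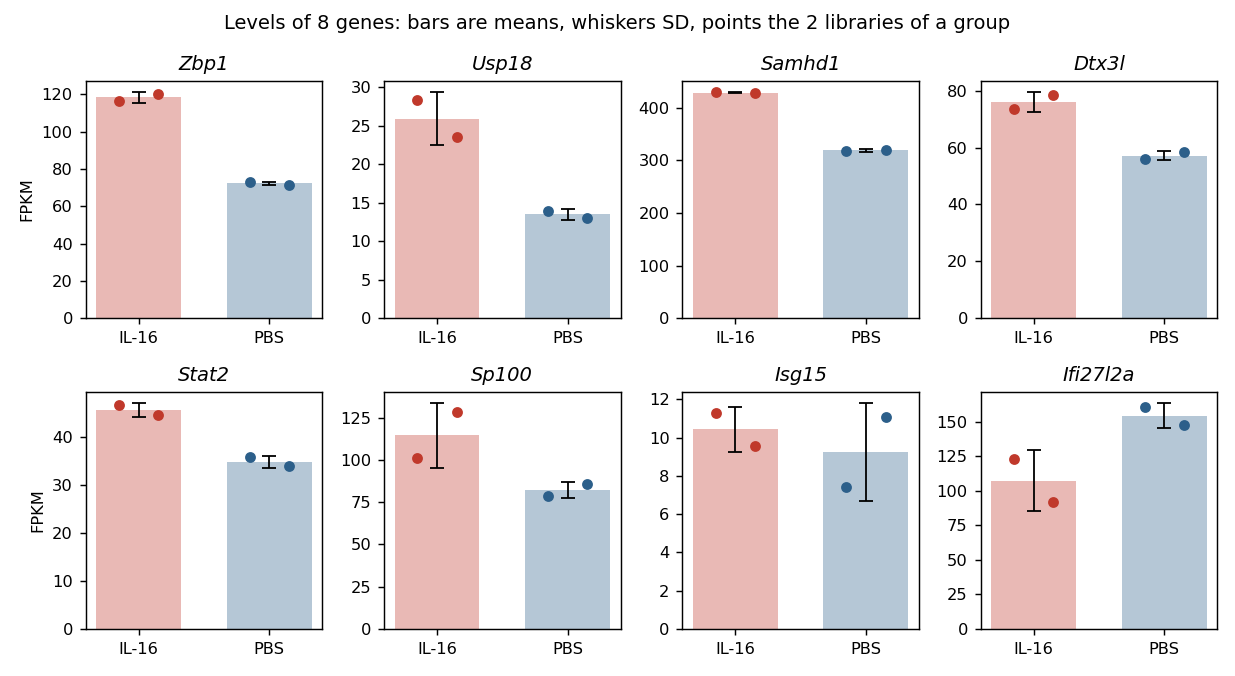
Levels in FPKM of 8 of the genes with IL-16 (left) and PBS (right) in each panel. Bars are group means, whiskers the SD (n = 2) and points the libraries: Zbp1, Usp18, Samhd1, Dtx3l, Stat2 and Sp100 lie higher with IL-16, Isg15 overlaps, and Ifi27l2a lies lower.

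Each IL-16 library was also set against the PBS mean, which both differences share, so that some likeness between them follows from the construction. Relative to that mean, 19 of the 25 tested genes (76%) were higher in both IL-16 libraries and 4 (16%) were lower in both (Herc6, Ifit2, Ifih1 and Ifi27l2a), where 31.6% and 43.6% of all tested rows were. The exceptions were Oas1a and Bst2. The median difference from the PBS mean was 0.27 for replicate 1 of the IL-16 libraries and 0.19 for replicate 2, and 17 of the 25 genes were higher in replicate 1 than in replicate 2. The median difference between the PBS libraries was 0.059. Sp100 (0.30 and 0.63 in IL-16 replicates 1 and 2), Bst2 (0.063 and -0.36) and Ifi27l2a (-0.32 and -0.75) showed the widest gaps between the IL-16 libraries. Leaving out a single library moved the log2 fold change by more than 1.5 times in 12 of the 25 genes, among them neither Zbp1 nor Usp18.

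**Figure D4:**
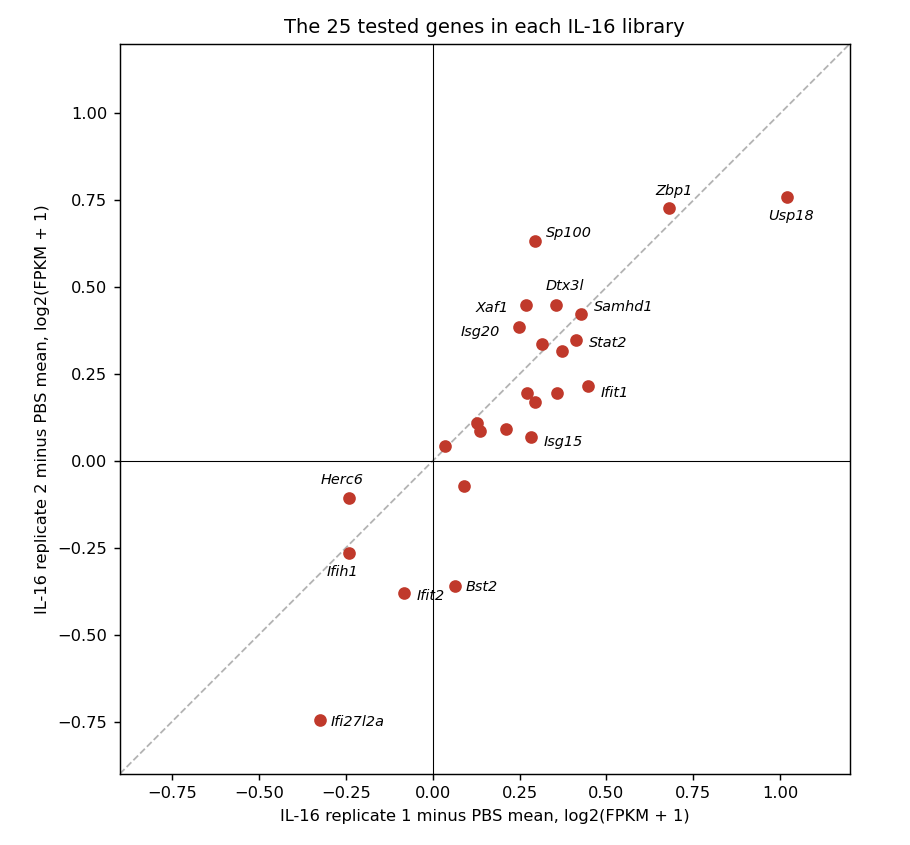
Difference of each IL-16 library from the PBS mean on the log2(FPKM + 1) scale for the 25 tested genes, replicate 1 on the x axis and replicate 2 on the y axis, with the line of equality dashed. Zbp1, Samhd1 and Stat2 lie near the line, Usp18 lies to its right, Sp100 lies above it, and Bst2 and Ifi27l2a lie below it. Both axes use the same PBS mean.

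Upstream of these genes, transcripts of type I interferon and related ligands were at or near 0. Of 20 interferon genes 17, among them Ifnb1 and 12 Ifna genes, were listed at 0 in all 4 libraries, and the highest value of the other 3 (Ifna12, Ifnab and Ifnz) was 0.119 FPKM. Of 8 markers of plasmacytoid dendritic cells, a main source of these cytokines in vivo, 3 were above 1 FPKM in every library (Irf8, Bst2 and Tcf4), and Siglech and Klk1 were listed at 0 throughout. The summed level of the 8 markers was 145 and 122 FPKM with IL-16, against 115 and 116 FPKM with PBS. Most of it came from Irf8 and from Bst2, which is itself one of the antiviral genes, so the sum does not measure these cells alone. Apart from Irf8, Bst2 and Tcf4, no marker of this list exceeded 0.617 FPKM. The part of these cells in the results was not tested. The receptor chain gene Ifnar1 had 17.6 and 18.0 FPKM with IL-16, against 20.8 FPKM in both PBS libraries, without passing (log2 fold change -0.21, adjusted p = 0.183). Ifnar2 had 22.8 and 22.7 FPKM with IL-16, against 21.9 and 21.0 FPKM with PBS (log2 fold change 0.079, adjusted p = 0.538). The 2 receptor chains thus had estimates on opposite sides of 0.

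Like the receptor chains, the kinase genes Jak1 and Tyk2 and the ISGF3 subunit gene Irf9 did not pass. Irf9 had 41.8 and 43.4 FPKM with IL-16, against 36.9 and 38.8 FPKM with PBS (log2 fold change 0.17, adjusted p = 0.240). Jak1 had a log2 fold change of -0.011 (adjusted p = 0.943) and Tyk2 one of 0.11 (adjusted p = 0.455). Of the 7 inhibitor genes (Socs1, Socs3, Pias1, Pias3, Pias4, Ptpn6 and Ptpn2) none passed, and their median log2 fold change was 0.19.

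Of 10 tested genes that sense nucleic acid or pass on that signal ahead of interferon production, none passed at 0.05. The adaptor genes Myd88 and Sting1 (2 of the 10) were higher at an adjusted p under 0.10, where 1.04% of all rows were. The median log2 fold change of the 10 was 0.081. The estimates of Cgas, Tbk1 and Irf3 were below 0 (-0.19, -0.088 and -0.0081), with adjusted p of 0.479, 0.508 and 0.976. Myd88, the adaptor of Toll-like receptors, had 53.5 and 55.3 FPKM with IL-16, against 37.3 and 37.7 FPKM with PBS (log2 fold change 0.52, adjusted p = 0.0666). Sting1, the adaptor of cytosolic DNA sensing, had 91.9 and 106 FPKM with IL-16, against 66.9 and 69.0 FPKM with PBS (log2 fold change 0.53, adjusted p = 0.0973). Irf7, the factor that amplifies type I interferon production, had 12.1 and 15.1 FPKM with IL-16, against 8.75 and 8.65 FPKM with PBS (log2 fold change 0.58, adjusted p = 0.105).

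A second list of 44 interferon-stimulated genes with no member in common gave 43 tested genes, of which none passed at an adjusted p of 0.05. At an unadjusted p under 0.05, 18 of the 43 were higher and 1 was lower, against 9.59% and 13.9% of all rows, with a median log2 fold change of 0.22. Those with the smallest p were Pml, Ifitm1 and Trex1 (adjusted p = 0.0719, 0.0756 and 0.0867). Trex1, which encodes the nuclease that clears cytosolic DNA, had the highest log2 fold change of this list at 0.73. From a list of genes taken to respond chiefly to interferon-gamma, 18 were tested, and the GTPase genes Gbp2 and Iigp1 passed. Of the 18, 12 were higher and none lower at an unadjusted p under 0.05, against 9.59% and 13.9% of all rows. At an adjusted p under 0.10, 11 were higher, against 1.04% of all rows. The 12 were Irf1 and GTPase genes (Gbp2 to Gbp7, Irgm1, Irgm2, Igtp, Iigp1 and Tgtp1). Socs1, Psmb8, Psmb9, Psmb10 and Tap1 had log2 fold changes of -0.038, -0.072, 0.018, -0.15 and 0.10, without passing. Cxcl10, not among the 12, entered the test through the IL-16 libraries alone. The median log2 fold change was 0.46 with it and without it. For the antiviral genes these figures were 12 of 25, 2 of 25 and 0.23. The difference between the lists was not tested.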

How the data were processed

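Polyadenylated RNA of 4 libraries was sequenced. Per the labels' protocols, Qiagen columns yielded the RNA and a SMARTer mRNA kit the libraries. The submitters' processing notes name GRCm39, fastp, HISAT2 and featureCounts but no versions. There were 26334 rows in the deposited table, with a single value for each library. The authors' values were read as FPKM, a unit inferred from values that are not whole and unequal totals, since the header names none. For genes below 0.2 FPKM in both libraries of a pair (1443 to 1614 genes), no window of 0.5% held more than 1.49% of the between-library ratios, so reads were not recovered. Groups and replicate numbers came from the sample titles.

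Tests used limma 3.58.1 (R 4.3.3) and its mean-variance trend, two-sided, on log2(FPKM + 1), with group as the only term and Benjamini-Hochberg adjustment over the 11882 rows with at least 1 FPKM in 2 libraries or more. It was tested on simulated data. The members and lists were chosen with earlier results of these data known, so no p was adjusted over the members alone and no set test was run. All 35 genes were to be named, with SE and intervals for those under an adjusted p of 0.10 and for the most abundant gene of each role. Genes singled out beyond this were chosen after their values were seen. Alternatives were 2 other pseudocounts, no filter and a stricter filter, 2 scalings, summed copy rows, a replicate block and leaving out each library. Promoter windows are RefSeq's on GRCm38.p6 and overlaps of exons are GENCODE's on GRCm38. Neither is the build in the notes, so coordinates belong to the windows alone.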

Additional observations from a re-analysis of the deposited data

How the results depend on the processing

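With all 4 libraries, 19 rows of the table were called higher and 7 lower, and 1 and 0 of the antiviral genes. No antiviral gene was called at a pseudocount of 0.1, without the filter on low values, or with the replicate block, and 12, 12 and 13 were then higher at an unadjusted p under 0.05 in limma, where 1121 of 11882, 1308 of 19465 and 1087 of 11882 rows were. The adjusted p of Zbp1 in these fits was 0.0510, 0.148 and 0.0577. Without the filter 0 rows were called in either direction over the table (1760 lower at an unadjusted p under 0.05). At a pseudocount of 5, 13 rows were lower. Of all rows, 40 were higher and 13 lower after median-of-ratios scaling, 29 and 11 after rescaling to TPM, and 73 and 53 with copy rows summed. Zbp1 and Usp18 were called after median-of-ratios scaling and with copies summed (2 antiviral genes each). The replicate block gave 20 higher and 11 lower rows. No label pairs the samples beyond the replicate number. Their deviations from the group means correlated with r = 0.0067 across rows, which cannot show whether libraries of the same number share a mouse or culture.

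Leaving out each library in turn gave 6 to 765 higher and 2 to 1300 lower rows, and 0 to 6 higher and 0 to 2 lower antiviral genes, which assumes that the single library left in a group varies as the other group does. The counts of 6 and 2 came without IL-16 replicate 1, where 6.44% and 10.9% of all rows were called. The median log2 fold change of the antiviral genes ran from 0.19 to 0.33 in these fits and was 0.30 over the 20 genes with a mean of at least 5 FPKM. It stayed within 1 SD of the library medians (0.048) in the other 7 settings. Over the alternatives run for each, 21 of the 25 genes kept their sign, and Isg15, Oas1a, Cmpk2 and Bst2 did not. There were 12 for each gene but Ifit1, Ifit2, Oas1a, Ifih1 and Cmpk2, which had 11 because they lie below the stricter filter. The unknown read depth leaves the counting error of the genes below 1 FPKM without an estimate.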
